A study of Mus musculus with 16 samples.

Results

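The 10 genes described here encode proteins of the lysosome. They are the cysteine cathepsins Ctsb, Ctsc, Ctsh, Ctsl, Ctss and Ctsz, the aspartic cathepsin Ctsd, legumain (Lgmn), and the lysosome-associated membrane proteins Lamp1 and Lamp2. They were chosen by gene symbol from a deposited table of liver RNA-seq levels, in which they make up 10 of 57010 rows, and all 10 were among the 11766 genes tested. The mice were male wild-type C57BL/6J, aged 8 to 12 weeks at the start of the experiment, with 4 mice in each of 4 groups. Livers were taken at the end of the treatments. The Cd group received CdCl2 intraperitoneally at 1.25 mg/kg daily over the last 7 days, the Se group ate grain with 2 ppm of selenomethionine (SeMet) over 3 months, the Cd+Se group had both treatments, and control mice had neither. Poly(A) RNA of the liver was sequenced, and levels in 1 column per mouse were deposited as TPM, a relative transcript level that is scaled per transcript length and to 1 common total in each library.

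Lysosomes are acidic organelles that break down material taken in from outside the cell or delivered by autophagy. Cathepsins and legumain are made as inactive precursors, mostly reach the lysosome by mannose 6-phosphate tags, and are activated there by cleavage. Cathepsins B, L and D are found in nearly all cells, whereas cathepsin S is best known from antigen-presenting cells, where it helps to trim the invariant chain of MHC class II. LAMP1 and LAMP2 are heavily glycosylated proteins that line the inner face of the lysosomal membrane, and a splice form of LAMP2 serves as the receptor of chaperone-mediated autophagy.

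How deeply each library was sequenced is unknown, since TPM carry no read totals, and precision rests on the 4 mice per group. Averaged across all 16 libraries together, each of the 12 hepatocyte markers looked at, Alb and Ttr among them, reached 1 TPM or more. Mt1, a metallothionein that binds Cd, was 50.9 to 221 TPM in control mice and 3178 to 4899 TPM in Cd mice. Cd mouse 5 stood apart: the median of its log2(TPM + 1) over all genes tested was 2.68, against 2.90 to 3.36 in the other libraries. It was also the lowest of its group for all 10 genes and the lowest of all 16 libraries for 8 of them, so the differences of the 10 genes in Cd against control and in Cd+Se against Cd, and the counts of calls in those comparisons, are given with and without it; values of single genes outside the set are from all 16 libraries. Over all genes tested, the median log2 fold change of Cd against control was −0.17, and centring every library on its own median moved it to 0.05. In whole liver, fewer cells of a type and less RNA per cell cannot be told apart.

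The 10 genes were well expressed in every mouse. Ctsl had the highest mean over the 16 libraries (346 TPM), followed by Lamp1 (302 TPM), Lamp2 (286 TPM), Ctsh (192 TPM), Ctsb (177 TPM), Ctsz (154 TPM), Ctsd (145 TPM), Ctsc (43.7 TPM), Lgmn (27.2 TPM) and Ctss (25.6 TPM). The level of Ctsl was above that of 97.6% of the genes tested, and that of Ctss above 78.2%. Together the 10 genes took 0.116% of all TPM in Cd mouse 5 and 0.217% in Se mouse 40, the lowest and the highest library. The ratio between the highest and the lowest mouse was smallest for Ctsz (1.61) and largest for Ctsd (3.25). Cd had the lowest of the 4 group means for 8 genes, all except Ctsl and Ctsz, which were lowest in control. Cd+Se had the highest group mean for 9 genes, all except Lamp2.

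**Figure D1:**
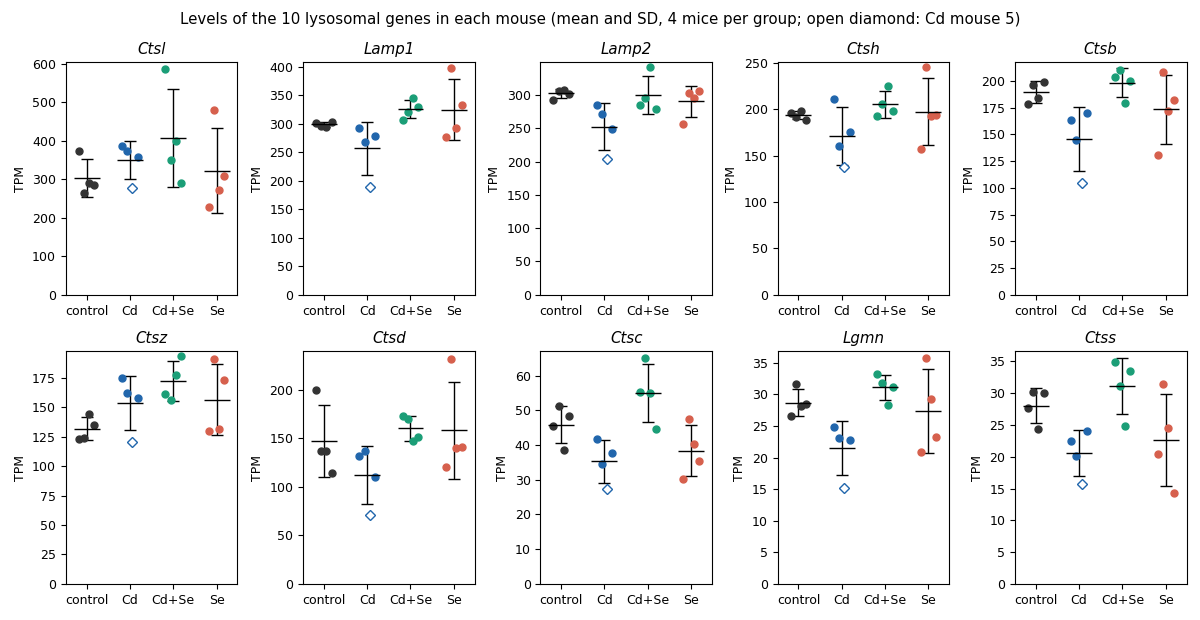
TPM of each of the 10 genes (vertical axes, starting at 0) by treatment group, with 1 point per mouse, a horizontal line for the mean and a bar for the SD of 4 mice. Cd mouse 5, the open diamond, is the lowest Cd point in all 10 panels; Ctsz and Ctsl have Cd means above control, and the other 8 have Cd means below it.

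Many lysosomal genes carry the palindrome CACGTG, an E-box, in their promoters, and in its longer form TCACGTGA this is the element named CLEAR that the transcription factor TFEB recognises. RefSeq promoters (GRCm38.p6, 250 bases before to 50 bases after the start of transcription) were matched by symbol for 8 of the 10 genes, all except Ctsb and Ctsh. CACGTG, which reads the same on both strands, was present for 4 genes (Ctsd, Lamp1, Lgmn and Ctsl), and TCACGTGA, which contains CACGTG, for Ctsd. Of 32851 RefSeq promoters of the same length, 7.15% hold CACGTG and 0.974% hold TCACGTGA. Ctsd holds TCACGTGA starting 98 bases before the start of transcription (chr7:142387908-142387937, minus strand). Lamp1 holds 4 copies of CACGTG, and those starting 61 bases (chr8:13159088-13159117, plus strand) and 15 bases (chr8:13159134-13159163, plus strand) before the start are shown. Lgmn holds 1 copy 49 bases before the start of the second of 2 listed promoters (chr12:102439124-102439153, minus strand), and Ctsl 1 copy 236 bases before its start (chr13:64370739-64370768, minus strand). These 30-base windows, 5′ to 3′ with the motif in capitals, are shown because the 4 genes share the motif while their levels differ in direction, Ctsl having a higher mean in Cd than in control and the other 3 a lower one. The starts are those of RefSeq. The GENCODE spans given below begin further upstream for Ctsd, Lgmn and Ctsl, so the windows of these genes lie inside those spans. A match describes the letters only.
Ctsd: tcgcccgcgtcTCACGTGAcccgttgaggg
Lamp1 distal: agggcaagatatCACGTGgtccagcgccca
Lamp1 proximal: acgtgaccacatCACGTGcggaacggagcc
Lgmn: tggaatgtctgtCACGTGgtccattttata
Ctsl: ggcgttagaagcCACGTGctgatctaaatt

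In the values that follow, control mice are in the order 27, 28, 29 and 30, Cd mice 1, 2, 5 and 6, Cd+Se mice 13, 14, 15 and 16, and Se mice 39, 40, 41 and 44. A difference is a log2 fold change from limma on log2(TPM + 1), with its standard error (SE), and p-values were adjusted over all 11766 genes by the Benjamini-Hochberg method. The threshold was an adjusted p of 0.05. Cd against control and Cd+Se against Cd share the Cd mice, so a low Cd mouse enters both, with opposite sign.

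Ctsb, Ctsl and Ctss encode cysteine endopeptidases; cathepsin B also removes dipeptides from the C-terminal end of its substrates. Ctsb (ENSMUSG00000021939, GRCm38 chr14:63122462-63145923) was 178, 196, 184 and 199.5 TPM in control, 163, 145, 104 and 170.3 TPM in Cd, 204, 211, 179 and 200.3 TPM in Cd+Se and 131, 209, 172 and 183 TPM in Se. Every Cd mouse lay below every control mouse and below every Cd+Se mouse, and Cd+Se and control overlapped. Ctsb rose in Cd+Se against Cd by 0.47 (SE 0.15, limma adjusted p = 0.0496), just under the threshold, and by 0.31 without Cd mouse 5 (adjusted p = 0.149). Cd against control was −0.40 (SE 0.15, adjusted p = 0.058), and −0.25 without Cd mouse 5 (adjusted p = 0.182).

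Ctsl (ENSMUSG00000021477, chr13:64359337-64370890) was 375, 265, 289.9 and 286 TPM in control, 387, 374, 277 and 359 TPM in Cd, 585, 349, 399.5 and 292 TPM in Cd+Se and 229, 479.6, 274 and 309 TPM in Se. The spread within groups was wide, with Cd+Se mouse 13 the highest of all 16 libraries and Se mouse 40 the next, and no group stood clear of another. The difference of Cd from control was 0.20 (SE 0.22, limma adjusted p = 0.524), and 0.31 without Cd mouse 5 (adjusted p = 0.374), and Cd+Se against Cd was 0.18 (SE 0.22, adjusted p = 0.604) and 0.07 without that mouse. Ctss (ENSMUSG00000038642, chr3:95526786-95556403) was 27.6, 30.2, 24.3 and 30.1 TPM in control, 22.6, 20.1, 15.8 and 24.1 TPM in Cd, 34.9, 31.1, 24.9 and 33.5 TPM in Cd+Se and 20.5, 31.4, 24.5 and 14.2 TPM in Se. The Cd mice were again all below the control and the Cd+Se mice, and Se mouse 44 was the lowest of all 16 libraries. For Cd against control, the value was −0.44 (SE 0.19, adjusted p = 0.0959), and Cd+Se against Cd was 0.57 (SE 0.19, adjusted p = 0.0532), so neither passed. Without Cd mouse 5 these values were −0.32 (adjusted p = 0.259) and 0.46 (adjusted p = 0.165).

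Ctsc, Ctsh and Ctsz encode cysteine exopeptidases. Cathepsin C, or dipeptidyl peptidase I, removes dipeptides from the N-terminal end and activates the serine proteases of neutrophil granules, cathepsin H is mainly an aminopeptidase, and cathepsin Z (also named X) is a carboxypeptidase. Ctsc (ENSMUSG00000030560, chr7:88278085-88310888) was 45.4, 51.2, 38.6 and 48.2 TPM in control, 41.8, 34.6, 27.2 and 37.7 TPM in Cd, 55.4, 65.1, 55.1 and 44.6 TPM in Cd+Se and 30.4, 47.5, 40.4 and 35.5 TPM in Se. All Cd+Se mice were above all Cd mice, and the highest Cd mouse exceeded the lowest control mouse. Ctsc rose in Cd+Se against Cd by 0.63 (SE 0.16, limma adjusted p = 0.0185), the largest difference of the 10 genes in that comparison, and by 0.51 without Cd mouse 5 (adjusted p = 0.059). Relative to control, Cd was −0.38 (SE 0.16, adjusted p = 0.0824), and −0.26 without Cd mouse 5 (adjusted p = 0.237).

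Ctsh (ENSMUSG00000032359, chr9:90054152-90076089) was 196, 192, 198 and 189 TPM in control, 211, 160.0, 138 and 175 TPM in Cd, 192, 205, 225 and 198 TPM in Cd+Se and 157, 245, 193 and 193 TPM in Se. The control mice lay within 10 TPM of each other, while the Cd mice reached both above and below them. Relative to control, Cd was −0.19 (SE 0.14, limma adjusted p = 0.299), and −0.10 without Cd mouse 5 (adjusted p = 0.637), and centring each library on its median turned it to 0.03. In Cd+Se against Cd it was 0.28 (SE 0.14, adjusted p = 0.17), and 0.18 without Cd mouse 5 (adjusted p = 0.419). Ctsz (ENSMUSG00000016256, chr2:174427493-174439039) was 123, 124, 144 and 135 TPM in control, 175, 162, 121 and 158 TPM in Cd, 161, 156, 177 and 194 TPM in Cd+Se and 130.0, 191, 132 and 174 TPM in Se. Here 3 of 4 Cd mice and all 4 Cd+Se mice were above every control mouse, and Cd mouse 5 was below them all. Cd against control was 0.21 (SE 0.14, adjusted p = 0.273), 0.32 without Cd mouse 5 (adjusted p = 0.0946) and 0.43 with each library centred on its median (adjusted p = 0.00282). Cd+Se against Cd was 0.17 (SE 0.14, adjusted p = 0.429), and 0.06 without Cd mouse 5, which did not pass either.

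Ctsd encodes cathepsin D, an aspartic endopeptidase, and Lgmn encodes legumain, a cysteine endopeptidase outside the cathepsin family that cuts after asparagine and processes several cathepsins. Ctsd (ENSMUSG00000007891, chr7:142375911-142388038) was 199.8, 137, 137 and 115 TPM in control, 132, 137, 71.4 and 110.0 TPM in Cd, 173, 170.3, 148 and 151 TPM in Cd+Se and 120.4, 232, 140.2 and 141 TPM in Se. All Cd+Se mice exceeded all Cd mice, but control mice overlapped with every other group, and control mouse 27 and Se mouse 40 were far above their groups. Cd+Se against Cd was 0.55 (SE 0.22, limma adjusted p = 0.0992), and 0.35 without Cd mouse 5 (adjusted p = 0.307). The difference between Cd and control was −0.40 (SE 0.22, adjusted p = 0.185), and −0.20 without that mouse (adjusted p = 0.521). Lgmn (ENSMUSG00000021190, chr12:102394084-102439813) was 26.5, 31.7, 28.2 and 28.4 TPM in control, 24.9, 23.2, 15.2 and 22.7 TPM in Cd, 33.2, 31.8, 28.4 and 31.1 TPM in Cd+Se and 20.9, 35.8, 29.3 and 23.3 TPM in Se. The 4 Cd mice were below all control and all Cd+Se mice. Lgmn rose in Cd+Se against Cd by 0.54 (SE 0.16, adjusted p = 0.0361), and by 0.38 without Cd mouse 5 (adjusted p = 0.112). The difference of Cd from control was −0.42 (SE 0.16, adjusted p = 0.0587), and −0.27 without Cd mouse 5 (adjusted p = 0.186).

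Lamp1 (ENSMUSG00000031447, chr8:13159161-13175338) was 302, 296, 294 and 304 TPM in control, 294, 268, 189 and 278 TPM in Cd, 308, 320.0, 345 and 330.3 TPM in Cd+Se and 276, 398, 293 and 333 TPM in Se. The Cd group lay wholly below control and the Cd+Se group wholly above it, although Cd mouse 1 was within 1 TPM of the lowest control mouse. For Cd against control, the value was −0.24 (SE 0.14, limma adjusted p = 0.198) and −0.10 without Cd mouse 5 (adjusted p = 0.565). Cd+Se against Cd was 0.36 (SE 0.14, adjusted p = 0.0797), and 0.22 without that mouse (adjusted p = 0.229). Lamp2 (ENSMUSG00000016534, chrX:38401357-38456454) was 293, 307, 308 and 302 TPM in control, 285, 272, 204 and 249.5 TPM in Cd, 284, 295, 342 and 279 TPM in Cd+Se and 257, 303, 295 and 306 TPM in Se. The Cd mice were below all control mice and overlapped with the Cd+Se mice, while the Cd+Se mean of 300.2 TPM was close to the control mean of 302 TPM. Relative to control, Cd was −0.27 (SE 0.11, adjusted p = 0.0765), and −0.17 without Cd mouse 5 (adjusted p = 0.208). Cd+Se against Cd was 0.255 (SE 0.11, adjusted p = 0.125), and 0.16 without that mouse (adjusted p = 0.322).

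Cd against control asks what 7 days of Cd did to these genes. Ctsb, Ctsc, Ctsd, Ctsh, Ctss, Lgmn, Lamp1 and Lamp2 had lower means in Cd, between 11.6% (Ctsh) and 26.4% (Ctss) below control, and Ctsl and Ctsz had means 14.9% and 16.9% above it. With limma, 0 of the 10 genes passed the threshold, and 5 had an unadjusted p under 0.05 (Ctsb, Ctsc, Ctss, Lamp2 and Lgmn). Over all genes tested, 24.9% were called lower and 5.82% higher, and the 0 calls among the 10 genes are to be read beside these shares. In 5 genes (Ctsb, Ctss, Lgmn, Lamp1 and Lamp2) all Cd mice were below all control mice, against 27.8% of all genes tested, and in 0 genes all were above, against 6.44%. The median log2 fold change of the 10 genes was −0.32, beside −0.17 over all genes.

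The count rested on the scaling and on single libraries. It was 3 with quantile normalization (Ctsb, Lamp1 and Lamp2, lower), 1 with each library centred on its median (Ctsz, higher), 5 lower after rescaling without the 10 highest genes, and 1 lower with only the groups compared (Ctss). Without Cd mouse 5 the differences ran from −0.32 (Ctss) to 0.32 (Ctsz), with a median of −0.185. Leaving out Cd mouse 5 gave 0 calls, Cd mouse 1 gave 4, Cd mouse 6 gave 1, and Se mice 39, 40 and 44, which enter only through the shared estimate of the spread, gave 2, 2 and 1. Over all genes, the calls were 685 higher and 2934 lower as deposited, 1710 and 2276 with quantile normalization, 2260 and 1804 with centring, and 682 and 1996 without Cd mouse 5.

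**Figure D2:**
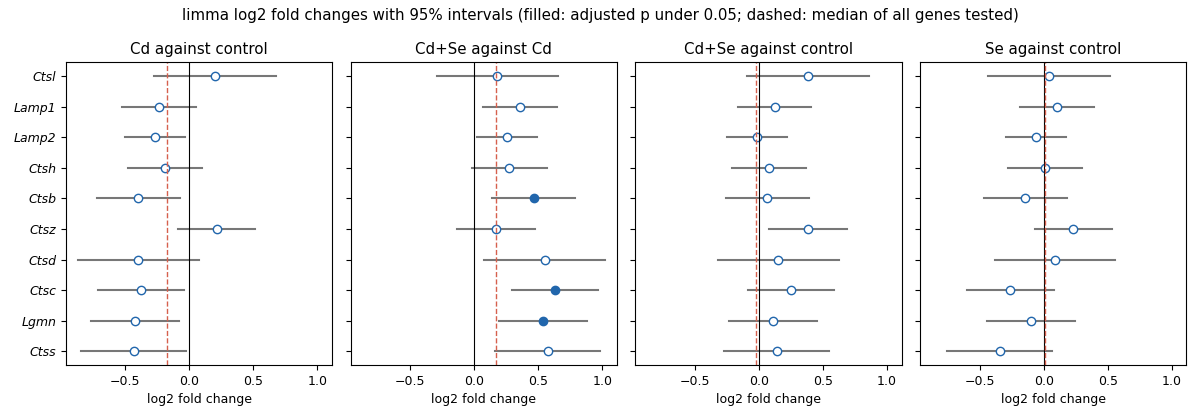
Log2 fold changes of the 10 genes (horizontal axes) with 95% intervals from limma in 4 comparisons, with filled points for an adjusted p under 0.05 and a dashed line at the median of all genes tested. Ctsb, Ctsc and Lgmn in Cd+Se against Cd are the 3 filled points; in Cd+Se against control only the interval of Ctsz lies wholly above 0.

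Cd+Se against Cd asks whether Se in the diet went with other levels in Cd-treated mice. All 10 genes had higher means in Cd+Se, between 11.9% (Ctsz) and 55.8% (Ctsc) above Cd, and Ctsc, Lgmn and Ctsb rose by the limma threshold. These 3 of 10 stand beside 13.6% of all genes tested called higher and 2.35% called lower. In 6 genes (Ctsb, Ctsc, Ctsd, Ctss, Lgmn and Lamp1) all Cd+Se mice were above all Cd mice, against 16.1% of all genes. The median log2 fold change of the 10 genes was 0.41, beside 0.17 over all genes. Without Cd mouse 5 the differences ran from 0.06 (Ctsz) to 0.51 (Ctsc), with a median of 0.265. The count was 0 without Cd mouse 5, 0 without Cd+Se mouse 14, 1 without Cd+Se mouse 13 or 16 (Ctsc), 0 with only the groups compared and 5 with quantile normalization. Ctsc passed in 21 of 25 alternative settings, Lgmn in 17, Ctsb in 8 and Ctss in 5. The settings that left out a control or a Se mouse kept these differences unchanged and acted only through the shared estimate of the spread. The tallies are therefore no measure of how firm the calls are. All genes split into 1600 higher and 276 lower as deposited, 937 and 1272 with centring, 1170 and 908 with quantile normalization, and 591 and 176 without Cd mouse 5.

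**Figure D3:**
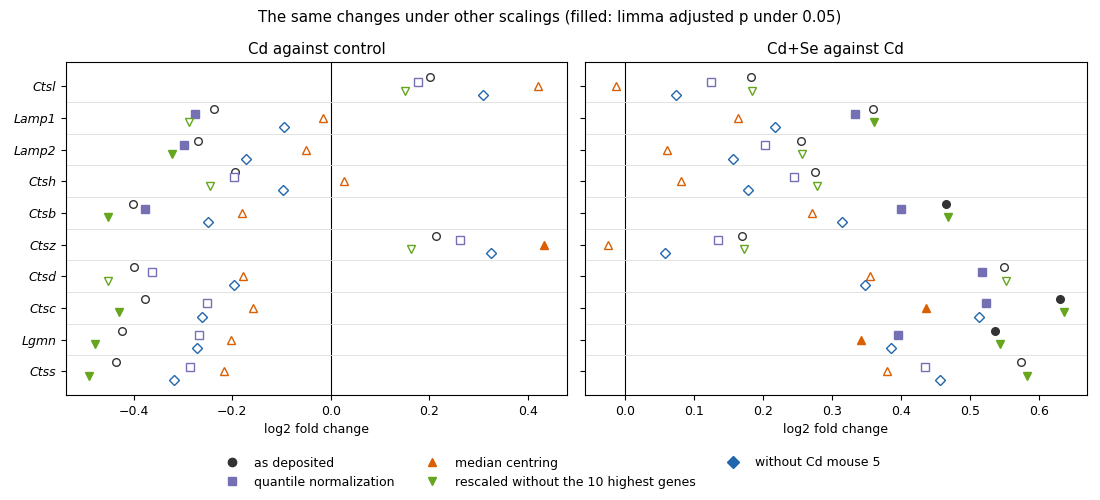
Log2 fold changes of the 10 genes (horizontal axes) in Cd against control and in Cd+Se against Cd, from TPM as deposited, from 3 other scalings and without Cd mouse 5, with filled marks for a limma adjusted p under 0.05. With median centring Ctsz in Cd against control moves to 0.43 and is the only filled mark right of 0 in that panel; without Cd mouse 5 no mark is filled in either panel.

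In Cd+Se against control, 9 of the 10 genes had higher means in Cd+Se and Lamp2 a lower one, 0.7% below control. With limma, 0 of 10 passed, against 0.484% of all genes tested in either direction, and 1 had an unadjusted p under 0.05, Ctsz (log2 fold change 0.38, SE 0.14, 95% interval 0.08 to 0.69, adjusted p = 0.316). The Cd+Se mice were above all control mice for 2 genes, Ctsz and Lamp1, against 3.88% of all genes. For Ctsc, which had risen against Cd, the difference from control was 0.25 (95% interval −0.08 to 0.59), for Lgmn 0.11 (−0.23 to 0.46) and for Ctsb 0.06 (−0.26 to 0.39). These intervals leave room for changes of either sign.

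In Se against control, 5 genes had higher and 5 lower means, and 0 of 10 passed with limma, with 0 at an unadjusted p under 0.05; over all genes tested 0.0% passed. The outermost differences were −0.34 for Ctss (SE 0.19, limma adjusted p = 1) and 0.23 for Ctsz (SE 0.14, adjusted p = 1). In Cd+Se against Se, 0 of 10 passed, against 0.714% of all genes, and 2 had an unadjusted p under 0.05. These were Ctsc, with 0.51 (SE 0.16, adjusted p = 0.201), and Ctss, with 0.48 (SE 0.19, adjusted p = 0.351). The interaction of Cd and Se, the difference between the Cd effect with and without Se, was called for 0 of 10 genes, against 1.04% of all genes, and 4 had an unadjusted p under 0.05. Among these 4, Ctss had the largest interaction (0.92, SE 0.27, adjusted p = 0.0916), followed by Ctsc (0.89, SE 0.23, adjusted p = 0.0629), Lgmn (0.63, SE 0.23, adjusted p = 0.137) and Ctsb (0.61, SE 0.22, adjusted p = 0.133).

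Ratios between genes within a mouse do not change when its whole library is multiplied by 1 factor, and they were added after the levels had been seen. Of the 45 ratios between pairs of the 10 genes, 16 (35.6%) did not overlap between Cd and control. This share is close to that of the ratios of every tested gene above 0 TPM in all libraries to each of the 10 genes, 32.9%, so the count says nothing particular to these genes. Of the 16 ratios, 15 involved Ctsl or Ctsz. The ratios given here and in the figure are among these 16, so their separation of Cd from control is no further result. Ctsz relative to Lamp2 was 0.422, 0.405, 0.467 and 0.446 in control, 0.614, 0.596, 0.591 and 0.633 in Cd, 0.567, 0.530, 0.518 and 0.695 in Cd+Se, and 0.505, 0.630, 0.447 and 0.567 in Se. Every Cd and every Cd+Se mouse was above every control mouse, Cd mouse 5 included, and the Se mice spanned from within the control range to the Cd range. Ctsl relative to Ctsb was 1.62 ± 0.34 (SD, n = 4) in control, 2.43 ± 0.24 in Cd, 2.06 ± 0.64 in Cd+Se and 1.83 ± 0.32 in Se. The lowest Cd mouse (2.11) and the highest control mouse (2.10) nearly touched.

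**Figure D4:**
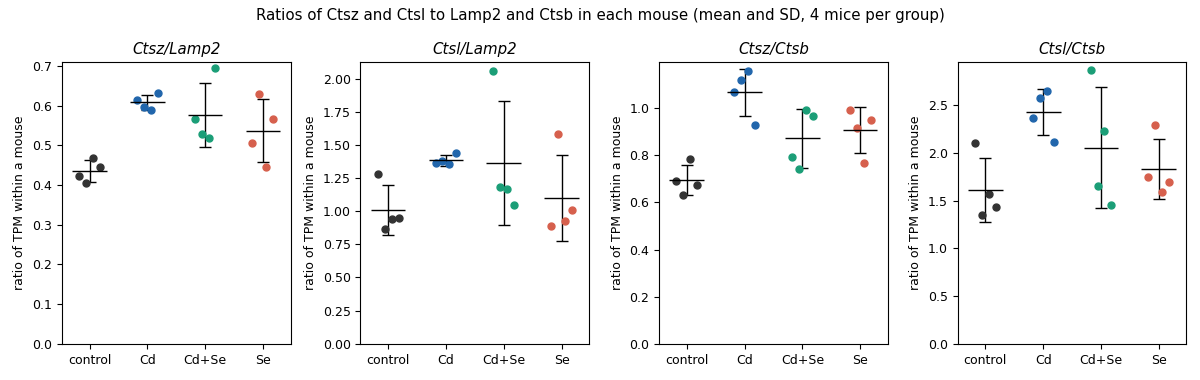
Ratios of TPM within each mouse (vertical axes, starting at 0) for Ctsz and Ctsl against Lamp2 and Ctsb, with 1 point per mouse, a line for the mean and a bar for the SD of 4 mice. The 4 ratios are among the 16 that did not overlap between Cd and control, so Cd points lie above control points in every panel by choice. The gap is wide for Ctsz against Lamp2 and narrow for Ctsl against Ctsb. Cd+Se points for Ctsl run from within the control range to above the highest Cd point.

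Several of these genes are strongly expressed in macrophages and other immune cells, whose markers differed between the groups. The 12 Kupffer cell markers, which include Clec4f and Timd4, were all called lower in Cd against control (11 without Cd mouse 5, beside 24.9% of all genes as deposited). In Cd+Se against control 5 of the 12 were called lower, beside 0.17% of all genes. The summed level of all 12 was 198 to 239 TPM in control, 78.7 to 116 TPM in Cd, 75.7 to 144 TPM in Cd+Se and 133 to 266 TPM in Se. Timd4 was 3.28 ± 0.55 TPM (SD, n = 4) in control, 0.14 ± 0.05 in Cd and 0.39 ± 0.18 in Cd+Se. Beside these sums, Ctss had means of 28.04 ± 2.74 TPM in control, 20.6 ± 3.6 in Cd, 31.1 ± 4.4 in Cd+Se and 22.7 ± 7.2 in Se (SD, n = 4). Ctsc had means of 45.9 ± 5.4 TPM in control, 35.3 ± 6.2 in Cd, 55.0 ± 8.4 in Cd+Se and 38.4 ± 7.3 in Se. Neither gene passed in Cd against control. The part of these cells in the levels of the 10 genes was not tested.

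The marker calls below stand beside 5.82% of all genes called higher and 24.9% called lower in Cd against control. Markers of monocytes and recruited macrophages summed to 106 to 133 TPM in control, 99.4 to 161 TPM in Cd, 143 to 245 TPM in Cd+Se and 110 to 159 TPM in Se. Of the 8 tested, 2 were called higher in Cd against control, with and without Cd mouse 5. Neutrophil markers summed to 6.83 to 17.1 TPM in control, 35.9 to 43.6 TPM in Cd, 47.2 to 78.3 TPM in Cd+Se and 6.22 to 10.6 TPM in Se. Here 3 of 4 tested were called higher in Cd against control (4 without Cd mouse 5). The monocyte and the neutrophil sums reached their highest value in Cd+Se mouse 13, which also had the highest Ctsl and Ctss of all mice. It was the highest for only these 2 of the 10 genes, and its Kupffer cell marker sum, 75.7 TPM, was the lowest of all mice. Dendritic cell and MHC class II genes summed to 79.6 to 115 TPM in control, 98.5 to 128 TPM in Cd, 91.0 to 192 TPM in Cd+Se and 52.3 to 94.4 TPM in Se. Cd74, the invariant chain that cathepsin S trims, was 41.9 ± 6.2 TPM in control, 38.3 ± 3.5 in Cd, 53.9 ± 14.03 in Cd+Se and 28.2 ± 6.2 in Se (SD, n = 4), and its difference in Cd+Se against Cd, 0.44, had a limma adjusted p of 0.13. Markers of sinusoidal endothelium (90.1 to 160 TPM over all mice), stellate cells (66.4 to 185 TPM) and B and T cells (2.71 to 10.96 TPM) overlapped in their sums between control and both Cd-treated groups. Of 10 endothelial markers, however, 4 were called lower and 1 higher in Cd against control (1 and 1 without Cd mouse 5). Hepatocyte markers summed to 69350 to 90140 TPM in control, 46440 to 73760 TPM in Cd, 59960 to 77930 TPM in Cd+Se and 68110 to 118100 TPM in Se. Of the 12, 3 were called lower in Cd against control (2 without Cd mouse 5). Whether these cells moved the 10 genes was not tested.

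Of 151 other lysosome genes listed by role, 125 were tested. In Cd against control, 4 were called higher and 38 lower (33.6% called, beside 24.9% lower and 5.82% higher over all genes), with a median of −0.19. In Cd+Se against Cd, 27 were called higher and 3 lower (24.0% called, beside 13.6% higher and 2.35% lower over all genes), with a median of 0.27. With limma, 0 were called in Cd+Se against control (7 at an unadjusted p under 0.05) and 0 in Se against control (3 at an unadjusted p under 0.05). The split of the calls moved with the scaling: in Cd against control it was 23 higher and 28 lower with centring and 18 and 33 with quantile normalization, and without Cd mouse 5 it was 5 and 26. In Cd+Se against Cd it was 19 and 13 with centring, 21 and 8 with quantile normalization, and 10 and 3 without Cd mouse 5.

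The list counts that follow stand beside 24.9% of all genes called lower in Cd against control and 13.6% called higher in Cd+Se against Cd. Among other cathepsins and lysosomal peptidases, 3 of 7 tested were called lower in Cd: Ctsf (−0.59), Ctso (−0.56) and Prcp (−0.38), of which Ctsf (0.58) and Ctso (0.43) were called higher in Cd+Se against Cd. Without Cd mouse 5, 2 were called lower in Cd and 0 higher in Cd+Se against Cd. Of the 20 genes on that list 13 had a mean under 1 TPM, 7 of them at 0 in all mice. Of 25 glycosidases and sulfatases, which take sugar chains apart, 8 were called lower in Cd (6 lower and 1 higher without Cd mouse 5). Of these 8, Hyal2 (−0.79), Gusb (−0.73), Sgsh (−0.68) and Arsb (−0.65) fell by the most. Gusb, the lysosomal beta-glucuronidase, was 17.8 ± 0.7 TPM in control, 10.4 ± 1.8 in Cd and 15.7 ± 1.4 in Cd+Se (SD, n = 4). The lipid enzymes and binding proteins had 8 of 14 called lower in Cd and 5 called higher in Cd+Se against Cd (5 and 4 without Cd mouse 5). They include Pla2g15 (−0.84), Lipa, the lysosomal acid lipase (−0.69 in Cd against control and 0.72 in Cd+Se against Cd), and Smpd1, the acid sphingomyelinase (−0.69 and 0.61 in these comparisons). Psap, the precursor of the saposins, was called higher in Cd+Se against Cd (0.67).

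**Figure D5:**
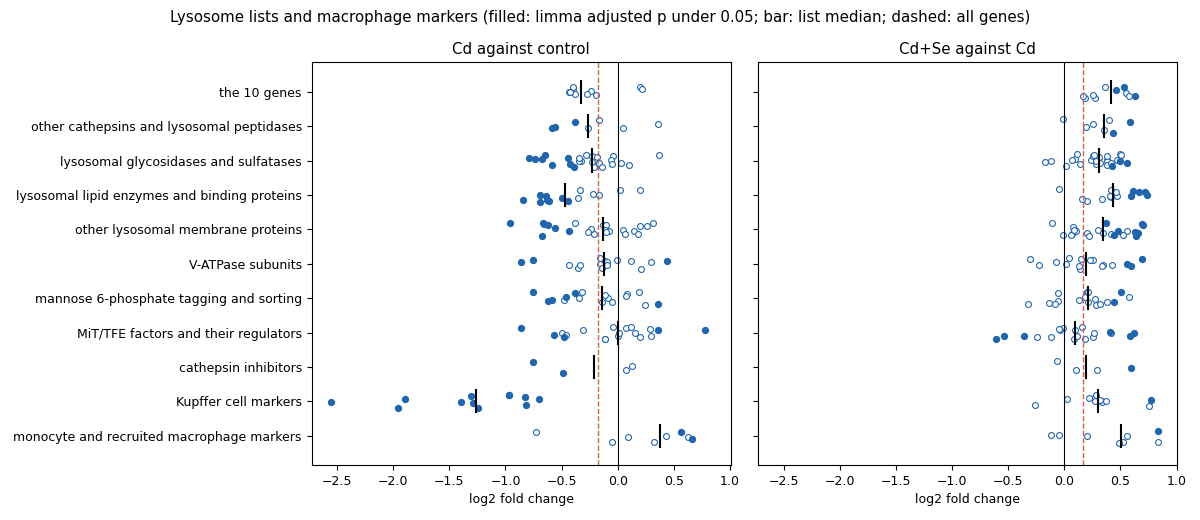
Log2 fold changes (horizontal axes) of the 10 genes, of 8 lists of other lysosome genes and of 2 macrophage marker lists in Cd against control and in Cd+Se against Cd, with filled points for a limma adjusted p under 0.05, a bar at each list's median and a dashed line at the median of all genes tested. The 10 genes have no filled point in Cd against control, whereas all 12 Kupffer cell markers are filled and below 0.

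Of the 23 other lysosomal membrane proteins tested, 7 were called lower in Cd, beside 24.9% of all genes, and 8 higher in Cd+Se against Cd, beside 13.6%. Without Cd mouse 5 these counts were 4 and 2. With centring, 4 were called higher and 5 lower in Cd, and 5 higher in Cd+Se against Cd. Scarb2 (LIMP-2), which carries glucocerebrosidase to the lysosome, was 69.3 ± 3.8 TPM in control, 36.1 ± 9.1 in Cd and 58.5 ± 9.7 in Cd+Se (SD, n = 4). It fell by 0.96 in Cd (SE 0.16, limma adjusted p = 0.000752), while Lamp1 and Lamp2, of the same membrane, had differences of −0.24 and −0.27 that did not pass. Mfsd8 (−0.68), Abcd4 (−0.66) and Sidt2 (−0.65) were also called lower in Cd. Cd63 and Cd68 were not, with 0.20 (adjusted p = 0.731) and −0.13 (adjusted p = 0.646), and Cd68, a macrophage relative of the LAMPs, was called higher in Cd+Se against Cd (0.63, adjusted p = 0.0384).

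For the next lists, the shares over all genes were 24.9% lower and 5.82% higher in Cd, and 13.6% higher and 2.35% lower in Cd+Se against Cd. The V-ATPase, the pump that acidifies lysosomes, had 1 of 16 subunits called higher and 2 lower in Cd: Atp6v1f (0.44), Atp6v0a2 (−0.86) and Atp6v1a (−0.76). These counts were the same without Cd mouse 5. Of 17 genes for mannose 6-phosphate tagging and sorting, 5 were called lower and 1 higher in Cd (4 and 1 without Cd mouse 5). Gnptab, a subunit of the enzyme that starts the tag, was 2.39 ± 0.12 TPM in control and 1.26 ± 0.20 in Cd (log2 fold change −0.59), and Igf2r, a receptor for tagged enzymes, was lower by a log2 fold change of −0.46. M6pr, the other receptor, was −0.14 (adjusted p = 0.467). Of the 19 MiT/TFE factors and regulators tested, 2 were called higher and 3 lower in Cd, and 3 higher and 3 lower in Cd+Se against Cd. Without Cd mouse 5 the calls were 2 higher and 2 lower in Cd, and 0 higher and 3 lower in Cd+Se against Cd. Flcn, which acts with the Rag GTPases to hold TFEB in the cytoplasm, rose in Cd by 0.78 and fell by 0.60 in Cd+Se against Cd, while the Rag subunit Rraga was called lower in Cd (−0.86) and higher in Cd+Se against Cd (0.62). Tfeb was −0.31 in Cd (limma adjusted p = 0.101), Tfe3 was 0.20 (adjusted p = 0.326), and Mitf, with a mean under 1 TPM, was not tested. Of 4 protease inhibitors tested, the serpins Serpinb6a (−0.75) and Serpinb9 (−0.49) were called lower in Cd, and 1 of the 4 without Cd mouse 5. Cystatins C and B, encoded by Cst3 and Cstb, were 0.12 (limma adjusted p = 0.419) and 0.07 (adjusted p = 0.767). Whether these serpins act on the cathepsins of the set was not tested.

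Among the genes outside the set whose log2 levels followed the mean standardised level of the 10 genes most closely were F12 (Pearson r = 0.97 over the 16 libraries), Aamp (0.95), Adipor1 (0.939) and Eif4b (0.936). This is a description; the libraries share their groups and their scaling, and Cd mouse 5 was low for all genes in the set.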

How the data were processed

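Liver RNA of 16 mice was measured, with 4 mice in each group, and groups were taken from the treatment labels, with titles used to match columns to samples. The authors deposited 1 table of TPM values for 57010 genes, named by mouse Ensembl identifier and symbol. The submitters' processing notes name fastp, HISAT2 and StringTie without versions, and a human build, GRCh38, although the identifiers are mouse, so the mouse annotation used is not given in the sources used here. Sample titles list rep1 and rep2 for a mouse, and the table holds 1 column per mouse. TPM keep no read totals, so count models were not used, and nothing beyond the labels says that the mice were handled independently.

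Values were compared as log2(TPM + 1), a scale that understates the change of low genes. Genes averaging 1 TPM or more over the 16 libraries, 11766 in number, were fitted in 1 limma 3.58.1 model (R 4.3.3), with a mean per group and an intensity trend in eBayes. Benjamini-Hochberg adjustment was over all genes tested, with a threshold of 0.05. The fit was also run on simulated data, in which genes varied independently and no library was shifted as a whole. That run therefore cannot show how the fit handles a library such as Cd mouse 5. Tables and figures were made with Python 3.11.15, pandas 2.3.3 and matplotlib 3.10.9.

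The 10 genes and all lists were chosen with earlier results of these data known. The text names all 10 genes, up to 4 genes with the largest changes past the threshold from each other lysosome list in Cd against control and in Cd+Se against Cd, Tfeb, Tfe3, Mitf, Cst3, Cstb, Cd63, Cd68, Scarb2, Gnptab, M6pr, Igf2r, Cd74 and Mt1, and the 5 genes most like the mean of the set, of which 1 is not reported here. Clec4f and Timd4 were named as examples after their values were seen. Alternatives were a pseudocount of 0.1, no filter, a mean of at least 5 TPM, quantile normalization, median centring, rescaling without the 10 highest genes, fitting only the groups compared, dropping the eBayes trend and leaving out each mouse. Centring together with leaving out Cd mouse 5 was added after seeing the data. Positions were looked up by Ensembl identifier in GENCODE M21 (GRCm38), and promoters by symbol in RefSeq (GRCm38.p6).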

Additional observations from a re-analysis of the deposited data

How the results depend on the processing

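The number of the 10 genes called moved in 3 comparisons. In Cd against control it was 0 as reported, 3 with quantile normalization, 1 with median centring, 5 without the 10 highest genes, 1 with only the groups compared, and 1 with centring and no Cd mouse 5, and leaving out each mouse gave 0 to 4. In Cd+Se against Cd it was 3 as reported, 1 with no filter, 5 with quantile normalization, 5 without the 10 highest genes, 0 with only the groups compared, and 0 with centring and no Cd mouse 5, and leaving out each mouse gave 0 to 4. The interaction gave 0 as reported and 1 each with quantile normalization, median centring and without the 10 highest genes, and 0 to 2 when each mouse was left out. Signs turned with median centring for Ctsh in Cd against control (0.0265), for Ctsz (−0.0245) and Ctsl (−0.0125) in Cd+Se against Cd and for Lamp2 in Cd+Se against control (0.0106). With centring and no Cd mouse 5 they turned for Lamp1 (0.0361) and Ctsh (0.035) in Cd against control, for Ctsz (−0.0478) and Ctsl (−0.0316) in Cd+Se against Cd and for Lamp2 in Cd+Se against control (0.0106). Leaving out each mouse gave −0.0096 to 0.3246 for Ctsl in Cd+Se against Cd and −0.0795 to 0.0183 for Lamp2 in Cd+Se against control. Of the other single-gene values, 679 kept their direction and their side of the threshold, 30 passed it only under the alternative and 29 only as reported. Except for the alternatives that leave out libraries or genes by construction, the cause was not tested. Read depth cannot be recovered from TPM.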
